A study of Mus musculus with 12 samples.

Results

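The genotype dependence of the response to IIAEK was measured as an interaction: the change on IIAEK in IAP knockout mice minus the change on IIAEK in wild-type mice, for each gene. All 12 of the 12 arrays of the series entered it, in 4 groups of 3. An interaction above 0 means that the gene's change on IIAEK was more positive in the knockout, and one below 0 that it was more positive in wild type. The value is a difference of log2 changes, on a level that is log2 of a gene's signal over the 75th percentile of its array. Wild-type mice formed a vehicle group and an IIAEK group, and so did IAP knockout (Akp3-/-) mice. The mice were male, were 7 weeks old at the start and were dosed by mouth once a day for 14 d. Vehicle was 5 g/L carboxymethylcellulose sodium salt, and IIAEK, a pentapeptide named by its residues in the one-letter code, was given at 600 mg/kg body weight per day. For the mice on IIAEK 1 label reads 14 weeks, against 14 d in every other place, and 14 d is used here. Jejunum was taken after 8 h of fasting in every group. The knockout is listed for Akp3 alone, and its strain, the strain of the wild-type mice and whether the groups were littermates are not given in the sources used here. The jejunum was taken as a whole piece of tissue, so every value is a mixture over epithelium, lymphoid tissue, muscle and anything attached.

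Intestinal alkaline phosphatase is an enzyme anchored on the brush border of enterocytes, where it removes phosphate from lipids, nucleotides and bacterial endotoxin and takes part in fat absorption. In mice more than 1 gene encodes such an enzyme: Akp3 is chiefly duodenal and Alpi is expressed further along the small intestine. IIAEK is a tryptic peptide of bovine milk beta-lactoglobulin, known for lowering serum cholesterol in rodents, and an interaction with Akp3 genotype is what the paired wild-type and knockout arms of the study can show. The brush border peptidases named here cut peptides at the cell surface, and transporters beside them carry the products into the cell.

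Between 59.99% and 67.1% of the spots of an array were well above background, and the 75th percentile used for scaling was 575 to 816 intensity units. Only 3 arrays per group limit the precision, and the p-values measure the spread between these samples. The labels number the mice but do not say whether they came from separate cages or litters. The arrays lay on 2 slides, and 1 wild-type and 2 knockout mice of each treatment were on slide 1 (replicate 1, and replicates 1 and 2). Within slide 1 the change in wild type is thus 1 array against 1, and within slide 2 the change in the knockout is 1 array against 1, so values within a slide carry no error. Some arrays stood apart from the rest of their group in markers of other tissue. The 13 tested genes of the exocrine pancreas had a mean deviation (the mean over the genes of the log2 level minus the gene's mean over all arrays) of 8.22 in wild type on IIAEK replicate 3 and 3.83 in knockout on vehicle replicate 3, against -2.46 to 0.89 on the other 10 arrays. The 13 tested genes of B and plasma cells split the arrays into high and low ones. The mean deviation lay between 0.79 and 1.50 in wild type on vehicle replicate 3, wild type on IIAEK replicates 2 and 3 and all 3 knockout arrays on vehicle, and between -1.35 and -0.85 on the other 6 arrays. Some results are therefore given also without the 2 arrays highest in pancreas genes, an alternative chosen after the data were seen. Values without these arrays are not given for every gene, and some of those not given moved as well.

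**Figure D1:**
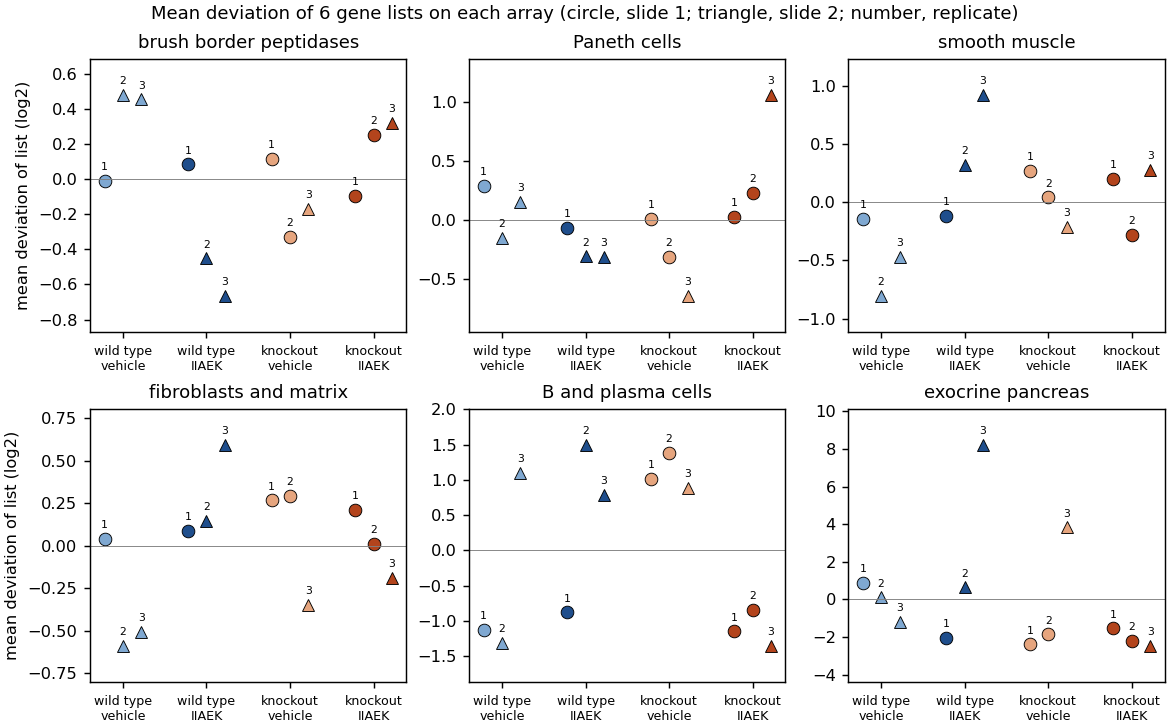
Each panel plots 1 gene list, with the mean deviation of its tested genes (log2) on the vertical axis for each of the 12 arrays by group; circles are slide 1, triangles are slide 2, and the small number is the replicate. In the exocrine pancreas panel 2 arrays stand at 8.22 and 3.83, and in the B and plasma cell panel all 3 knockout arrays on IIAEK lie below -0.8 while all 3 on vehicle lie above 0.8.

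Akp3, the targeted gene, was above background on 5 of the 6 wild-type arrays and on none of the 6 knockout arrays. Its level was -3.81, -4.43 and -6.42 in wild type on vehicle (replicates 1, 2 and 3), of which the first 2 were above background, and -4.39, -1.61 and -1.74 in wild type on IIAEK, all above background. It was -7.32, -5.96 and -6.44 in the knockout on vehicle and -6.41, -7.33 and -7.19 on IIAEK, and none of these 6 arrays was above background. The array labelled wild type on vehicle replicate 3 thus lay within the range of the knockout arrays, and Akp3 does not check its label; that array enters every interaction given below. The 2 highest arrays are wild type on IIAEK replicates 2 and 3, which share slide 2.

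No gene showed an interaction past an adjusted p of 0.05 (limma, Benjamini-Hochberg over 27565 genes). The smallest adjusted p was 0.197. At an unadjusted p under 0.05 there were 4157 genes, 15.1% of those tested: 2470 (8.96%) with an interaction above 0 and 1687 (6.12%) below 0. The median interaction over all genes was 0.057, and 54.5% of genes lay above 0. These shares are the background against which each list of genes is read below. IIAEK against vehicle within a genotype also gave 0 genes past the threshold in limma, with 3591 (13%) at an unadjusted p under 0.05 in wild type and 1217 (4.42%) in the knockout.

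The gene-wise changes of the genotypes ran against each other more often than with each other. Over all genes the sign of the change on IIAEK was opposite in wild type and knockout for 62.91%, and the Pearson correlation between both changes across genes was -0.29. The changes share no array, and genes are not independent replicates, so the correlation is a description. Among the 4157 genes at an unadjusted p under 0.05 the signs were opposite in 4079 (98.12%), a share that choosing genes by the difference of the changes raises in itself. The change in wild type was the larger in 71.25% of them, against 62.52% of all genes. Their median absolute change was 0.45 in wild type and 0.30 in the knockout, against 0.23 and 0.16 over all genes.

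**Figure D2:**
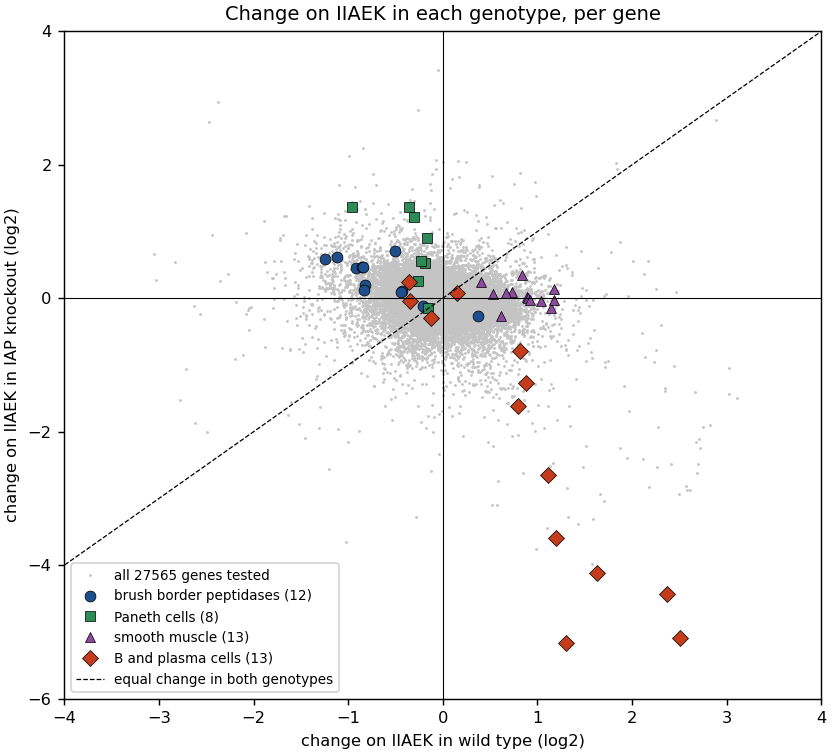
Each point is a gene, with its log2 change on IIAEK in wild type on the horizontal axis and in the IAP knockout on the vertical axis; grey points are all genes tested (1 of them lies outside the axes), coloured symbols are 4 gene lists, and the dashed line marks equal changes. Most brush border peptidases and Paneth cell genes lie to the upper left, smooth muscle genes lie at positive wild-type change near 0 in the knockout, and 9 B cell genes lie to the lower right.

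Seen by group, these genes crossed over. For the 2470 genes with an interaction above 0, the median deviation of the group from the gene's mean over the 4 groups was 0.24 in wild type on vehicle, -0.19 in wild type on IIAEK, -0.17 in the knockout on vehicle and 0.13 in the knockout on IIAEK. For the 1687 genes below 0 it was -0.27, 0.24, 0.18 and -0.13 in the same order. Wild type on IIAEK and knockout on vehicle thus lay on the same side, and wild type on vehicle and knockout on IIAEK on the other. The difference between the genotypes had opposite signs on vehicle and on IIAEK in 97.53% of the genes above 0 and 97.63% of those below 0, beside 62.36% of all genes. An interaction is made of these same group means, so the pattern describes its form and is no separate test. Vehicle and IIAEK arrays did not overlap in wild type in 25.3% of all genes and in the knockout in 7.53%. They did not overlap in either genotype, with opposite directions, in 435 genes (1.58%): 294 (1.07%) were lower on IIAEK in wild type and higher in the knockout, and 141 (0.512%) the reverse. They did not overlap in the same direction in 39 genes (0.141%).

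Of the genes with a characterised name, the 10 with the smallest p above 0 had interactions between 0.78 and 3.06, and all had an adjusted p of 0.311, so none passed. Dennd10, which encodes a DENN domain protein, had levels of 1.65, 1.88 and 2.20 in wild type on vehicle and 1.41, 1.34 and 1.0 on IIAEK. In the knockout its levels were 1.40, 1.19 and 1.12 on vehicle and 1.81, 2.22 and 1.95 on IIAEK. All 3 IIAEK arrays lay below vehicle in wild type and above it in the knockout, with an interaction of 1.42 (SE 0.26). Mbl2, the mannose-binding lectin that starts a complement pathway, gave 4.79, 4.53 and 4.34 on vehicle and 3.30, 3.76 and 3.33 on IIAEK in wild type. Among knockout mice it had 5.12, 3.1 and 3.55 on vehicle and 5.14, 5.36 and 6.38 on IIAEK. The wild-type arrays were well apart, while in the knockout replicate 1 on vehicle nearly reached the lowest IIAEK array, and the interaction was 2.80 (SE 0.65). The same crossing without overlap in either genotype was found for Grm5, a metabotropic glutamate receptor, at 1.40 (SE 0.26), Radx, which binds single-stranded DNA at replication forks, at 1.35 (SE 0.26), Prr15 at 1.35 (SE 0.28), the transcription factor Plag1 at 1.05 (SE 0.23) and Socs4, a suppressor of cytokine signalling, at 0.78 (SE 0.18). It was thus found in 7 of these 10 genes, beside 1.07% of all genes. Choosing genes by the smallest p raises that share in itself.

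The other 3 of these 10 did not overlap in wild type only. Dusp9, a MAP kinase phosphatase, lay at -5.05, -3.46 and -3.92 in wild type on vehicle and below background on all 3 wild-type arrays on IIAEK, which is at least 3.14-fold lower. In the knockout it lay at -5.33, -5.45 and -4.49 on vehicle and -5.17, -4.90 and -4.43 on IIAEK, and those groups overlapped. Its interaction of 2.61 (SE 0.57) rests on signals below background in wild type on IIAEK and was 0.58 with the normexp background correction, an alternative that shrinks differences between dim signals. Bpifb1, a secreted protein of mucosal defence, was above background on all 3 wild-type arrays on vehicle and on no wild-type array on IIAEK, at least 1.87-fold lower, and on 0 and 2 knockout arrays. It was tested only because of those 3 vehicle arrays. Its interaction of 3.06 (SE 0.70) rests on those signals below background as well, and was 0.69 with that correction. Hectd2, a ubiquitin ligase, had an interaction of 1.26 (SE 0.28). The sizes for Grm5, Radx and Hectd2 are those of the brightest probe, the only probe of each that was above background on all arrays of a group. With all probes of the gene averaged they were 0.44, 0.43 and 0.58. With normexp, Grm5 had 0.67, Hectd2 0.68 and Plag1 0.51.

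The 10 characterised genes with the smallest p below 0 lay between -2.22 and -1.09, again with an adjusted p of 0.311 each. Vpreb3, a gene of the B cell lineage, had levels of -0.84, -0.14 and 0.53 in wild type on vehicle and 0.19, 0.97 and 0.65 on IIAEK. The knockout arrays gave 1.08, 1.13 and 1.13 on vehicle and -0.24, -0.42 and -0.39 on IIAEK. The wild-type groups overlapped and the knockout groups lay far apart, with an interaction of -2.22 (SE 0.41). Fermt3, which activates integrins in blood cells, had -1.81 (SE 0.36), Top1mt, the mitochondrial topoisomerase, -1.53 (SE 0.29), Mtss2 -1.47 (SE 0.30), Rpusd1 -1.28 (SE 0.24), Ndufa4l2, a mitochondrial protein induced by low oxygen, -1.21 (SE 0.27), and Polh, a DNA polymerase that copies damaged DNA, -1.17 (SE 0.22). Crtap, which takes part in collagen modification, had -1.16 (SE 0.26), the phosphoinositide kinase Pip4k2b -1.13 (SE 0.25) and Ubxn11 -1.09 (SE 0.23). In 8 of the 10, all but Vpreb3 and Crtap, vehicle and IIAEK arrays did not overlap in either genotype, beside 0.512% of all genes in these directions. Choosing genes by the smallest p raises that share in itself. For Mtss2 the mean over all its probes gave 0.094, so its direction holds for its brightest probe and not for that average. Polh was above background on 2 of the 3 knockout arrays on IIAEK and on all arrays of the other groups, and had -0.27 with normexp. Fermt3 had -0.89 with that correction, Rpusd1 -0.59, Ndufa4l2 -0.55 and Ubxn11 -0.69. The smallest p of all belonged to a probe without a gene name, A_55_P2162879, outside the rule for names and singled out after its value was seen. Its interaction was 5.11 (SE 0.66, adjusted p = 0.197), and it was below background on all wild-type arrays on IIAEK and all knockout arrays on vehicle. It was tested only because the knockout on IIAEK, the group where it was highest, had it above background on all 3 arrays.

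**Figure D3:**
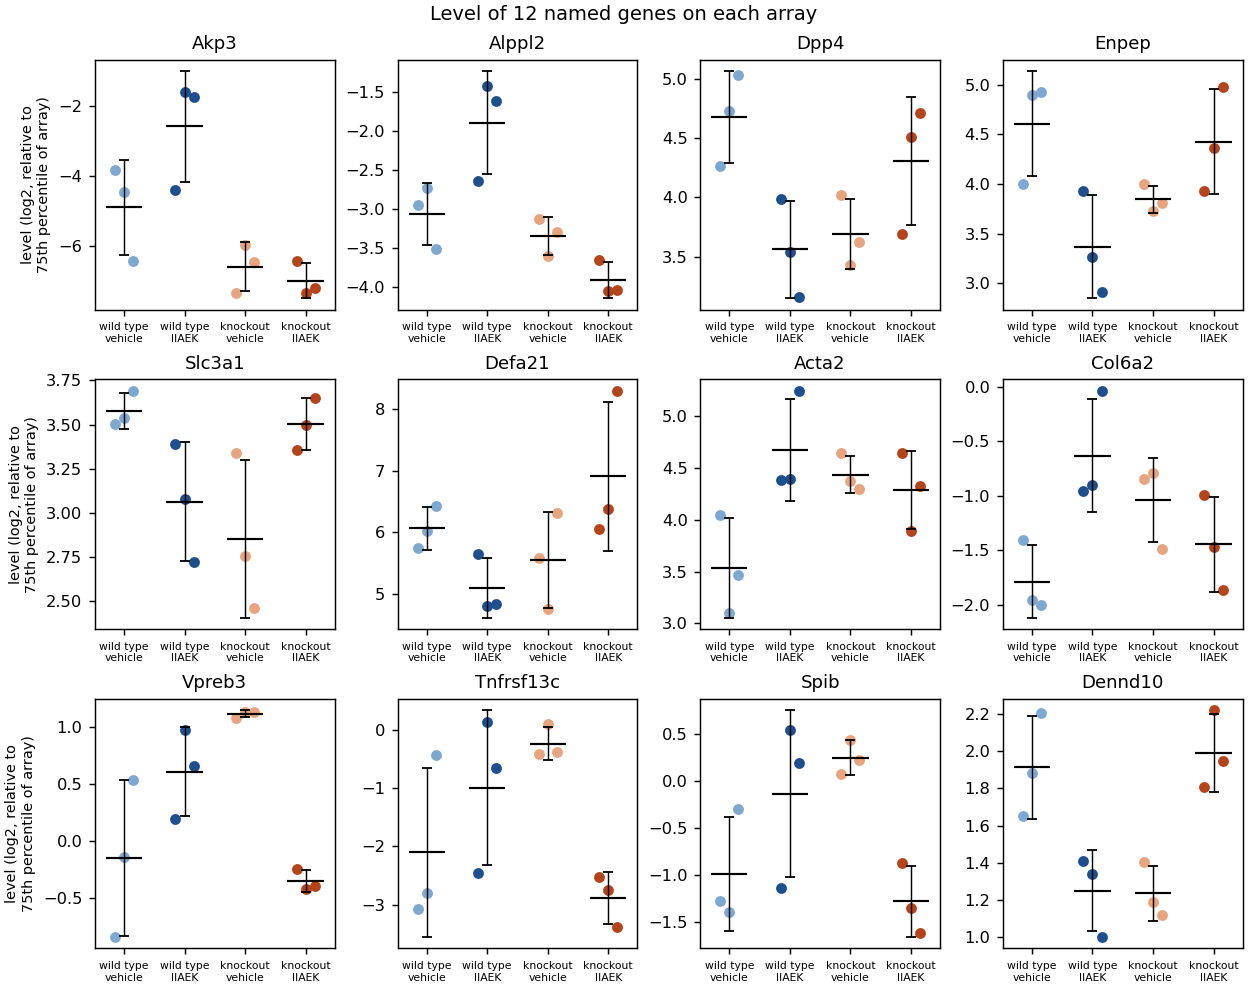
Each panel plots 1 gene on its own vertical scale, the log2 level relative to the array's 75th percentile, with a point for each of the 3 arrays of a group (replicates 1 to 3 from left to right), a bar at the mean and whiskers of 1 SD. Dennd10, Dpp4, Enpep and Slc3a1 are lower on IIAEK in wild type and higher in the knockout on average, and Vpreb3, Tnfrsf13c and Spib are lower on all 3 knockout arrays on IIAEK than on any knockout array on vehicle.

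All 4 alkaline phosphatase genes had an interaction below 0, 3 of them at an unadjusted p under 0.05, beside 6.12% of all genes in that direction. That count was 1 of 4 when any of 5 arrays was left out (wild type on vehicle replicate 3, wild type on IIAEK replicates 2 and 3, knockout on vehicle replicate 3 and knockout on IIAEK replicate 3). In those 5 fits 8.08% to 13.8% of all genes were at that level in either direction. The count was also 1 of 4 without the 2 arrays highest in pancreas genes (8.46% of all genes). Akp3 was tested because wild type on IIAEK had it above background on all 3 arrays, the group where it was highest. Their median interaction was -1.29, made of a median change of 0.86 in wild type and -0.35 in the knockout. For Akp3 the interaction was -2.71 (SE 1.10, adjusted p = 0.315), and with no signal above background in the knockout it restates the wild-type values; it was -1.16 with normexp. Alppl2, an alkaline phosphatase of embryonic type, had levels of -2.94, -2.73 and -3.50 in wild type on vehicle and -2.64, -1.42 and -1.62 on IIAEK. In the knockout it had -3.13, -3.60 and -3.29 on vehicle and -3.64, -4.05 and -4.03 on IIAEK. Neither pair of groups overlapped, and the interaction was -1.74 (SE 0.43, adjusted p = 0.311), and -1.10 with normexp. Alpi, the other intestinal form, was high throughout, at 5.25, 5.31 and 4.68 on vehicle and 5.42, 5.81 and 5.66 on IIAEK in wild type. It was 5.06, 4.44 and 4.85 on vehicle and 4.84, 4.61 and 3.99 on IIAEK in the knockout, where the groups overlapped, and its interaction was -0.85 (SE 0.36, adjusted p = 0.322). Alpl, the tissue-nonspecific form, had -0.44 (SE 0.49, adjusted p = 0.672), which was 0.11 without the 2 arrays highest in pancreas genes. The list's median was -0.85 over the genes above background on all 12 arrays, where Akp3 has no part, and it was 0.013 within slide 1 and -1.97 within slide 2.

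Brush border peptidases were the pathway list with the highest median interaction, 1.11 over 12 genes, from a median change of -0.83 in wild type and 0.32 in the knockout. Of the 12, 11 lay above 0 and 6 were at an unadjusted p under 0.05, all 6 above 0, beside 8.96% of all genes. Dpp4, dipeptidyl peptidase 4, which removes dipeptides from peptides such as incretins, had levels of 4.26, 4.74 and 5.03 in wild type on vehicle and 3.98, 3.54 and 3.16 on IIAEK. Knockout mice gave 4.02, 3.43 and 3.62 on vehicle and 3.69, 4.51 and 4.72 on IIAEK. The wild-type groups did not overlap, the knockout groups did, and the interaction was 1.73 (SE 0.43; 1.44 in its other probe). Enpep, glutamyl aminopeptidase, had levels of 4.0, 4.90 and 4.92 on vehicle and 3.93, 3.26 and 2.91 on IIAEK in wild type. It had 4.0, 3.73 and 3.81 on vehicle and 3.93, 4.36 and 4.98 on IIAEK in the knockout, where 1 IIAEK array lay below the highest vehicle array. Its interaction was 1.82 (SE 0.47; 1.47 in its other probe).

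The subunits of meprin, a metalloprotease of the same membrane, followed with 1.32 (SE 0.45) for Mep1a and 1.22 (SE 0.40) for Mep1b. All 4 of these genes had an adjusted p of 0.311. Mme, neprilysin, was also at an unadjusted p under 0.05, at 1.37. Anpep, aminopeptidase N and one of the most abundant of the family, had 0.55 (SE 0.41), Ace 0.54, Xpnpep2 0.96, Naaladl1 1.30 and Ggt1 0.10. Tmprss15, enteropeptidase, which activates trypsinogen, was the 1 member below 0, at -0.63. The list's mean deviation was 0.31 ± 0.28 (SD, n = 3) in wild type on vehicle, -0.34 ± 0.39 on IIAEK, -0.13 ± 0.23 in the knockout on vehicle and 0.16 ± 0.22 on IIAEK. The lowest arrays were wild type on IIAEK replicates 2 and 3, which also stood highest of all 12 for smooth muscle genes. Whether the peptidase values follow from the share of muscle in the sample was not tested. On slide 1 alone the list's median was 0.26 and on slide 2 alone 1.80, and leaving out 1 array at a time gave 0.92 to 1.36. Genes of the enterocyte itself did not share this pattern as a list: 14 markers such as Vil1 (0.02), Ezr (0.17) and Epcam (0.08) had a median of 0.037, with 8 above 0 and 1 at an unadjusted p under 0.05. With 1 array left out that median lay between -0.091 and 0.12, and 0 to 2 genes were at that level.

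Transporters of peptides and amino acids lay in the same direction with smaller values. Of 12 genes 11 were above 0 and 2 (16.67%) at an unadjusted p under 0.05, near the 15.1% of all genes. That count was 1 without wild type on vehicle replicate 3, wild type on IIAEK replicate 3 or knockout on vehicle replicate 2 or 3. In those fits 8.08% to 13.8% of all genes were at that level. The count was 5 without replicate 1 of wild type on vehicle (13.1% of all genes) or of wild type on IIAEK (18.3%). The list had a median of 0.50, from -0.20 in wild type and 0.20 in the knockout. Slc3a1 and Slc7a9 form the carrier of cystine and basic amino acids. Slc3a1 had levels of 3.50, 3.54 and 3.69 in wild type on vehicle and 3.39, 3.08 and 2.72 on IIAEK. Among knockout mice it had 3.34, 2.76 and 2.46 on vehicle and 3.36, 3.50 and 3.65 on IIAEK. Neither pair overlapped, though by a narrow margin in the knockout, and the interaction was 1.16 (SE 0.32, adjusted p = 0.311). Slc7a9 had 0.58 (SE 0.23, adjusted p = 0.315). Slc7a7, of the basolateral carrier of basic amino acids, had 0.55 (SE 0.25) and Slc6a19, the main carrier of neutral amino acids, 0.66 (SE 0.33). Slc15a1, the peptide transporter PEPT1, had levels of 0.22, 2.20 and 2.02 in wild type on vehicle and 0.43, 0.76 and 0.73 on IIAEK. In the knockout its levels were 0.62, -0.20 and 1.80 on vehicle and 0.50, 0.76 and 2.20 on IIAEK. Both pairs overlapped, and the interaction of 1.26 (SE 0.86, adjusted p = 0.475) lay between 0.73 and 1.89 when 1 array was left out. On slide 1 alone the list's median was -0.088, on slide 2 alone 0.83, and leaving out wild type on IIAEK replicate 2 gave 0.29.

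**Figure D4:**
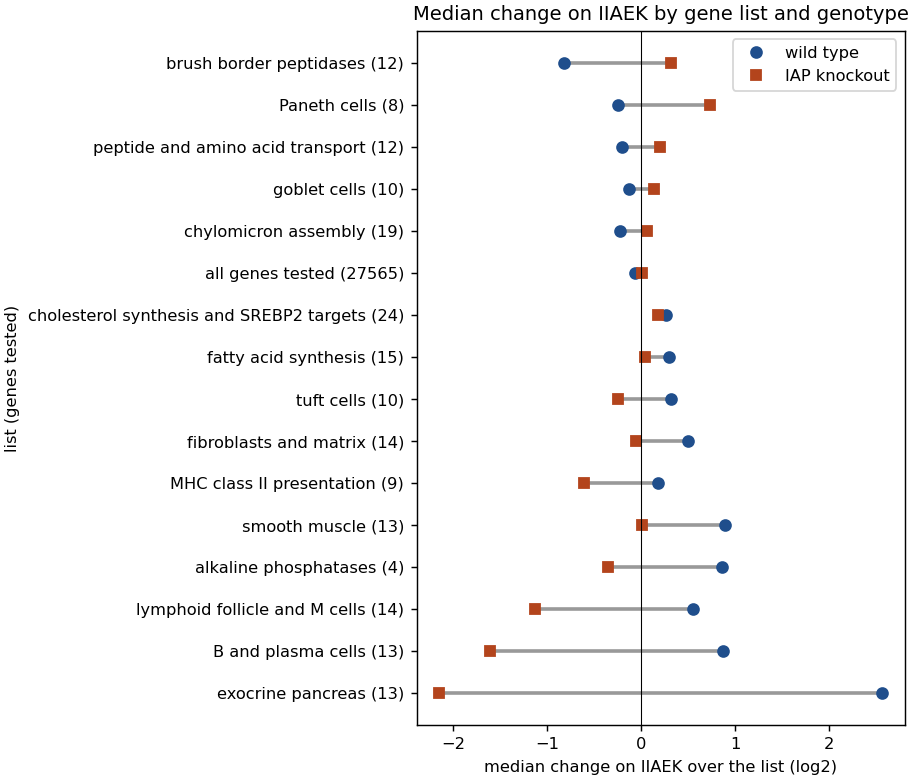
For 15 gene lists and for all genes tested, ordered by median interaction, the median log2 change on IIAEK over the list's genes is plotted for wild type (circles) and the IAP knockout (squares), with the number of genes tested in brackets. Brush border peptidases stand at -0.83 and 0.32, B and plasma cell genes at 0.87 and -1.61, and all genes at -0.062 and 0.0059.

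The rule names 8 genes that handle sterols and peptides, Slc15a1 among them, and the only one at an unadjusted p under 0.05 was Abca1, the exporter of cholesterol at the basolateral membrane. Its levels were 1.88, 2.37 and 2.07 in wild type on vehicle and 1.50, 1.14 and 1.55 on IIAEK. In the knockout they were 1.43, 1.49 and 2.06 on vehicle and 1.73, 1.85 and 1.60 on IIAEK. The wild-type groups did not overlap and the knockout groups did, with an interaction of 0.78 (SE 0.28, adjusted p = 0.311), which was 0.26 in its other probe. Npc1l1, the importer of dietary cholesterol, had 0.28 (SE 0.38), Abcg8, of the sterol efflux pump, -0.45 (SE 0.44), Soat2, which esterifies cholesterol, 0.24 (SE 0.42) and Abcg5, the partner of Abcg8, 0.0046 (SE 0.28). Of the proteins that build chylomicrons, Apob had 0.25 (SE 0.22) and Mttp 0.38 (SE 0.32). The adjusted p of these 6 lay between 0.556 and 0.995. The direction for Abcg5 turned to -0.17 with quantile normalisation and -0.16 without the 2 arrays highest in pancreas genes, and that for Soat2 to -0.067 without those arrays.

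Chylomicron genes, 19 in all, had a median of 0.21 with 15 above 0 and 2 at an unadjusted p under 0.05, Gpat3, an acyltransferase of triglyceride synthesis, at 0.79 (SE 0.23) and Sar1b, the GTPase of chylomicron export, at 1.06 (SE 0.33). Fabp2, the intestinal fatty acid binding protein, had 0.30 (SE 0.20), and Gpat4 -0.52 (SE 0.33). The 2 chylomicron genes at an unadjusted p under 0.05 were 10.53% of the list, below the 15.1% of all genes. The chylomicron median was 0.078 with quantile normalisation and 0.12 without the 2 arrays highest in pancreas genes. The chylomicron count was 4 of 19 without knockout on IIAEK replicate 1, where 24.5% of all genes were at that level. Cholesterol synthesis genes split evenly, 12 above and 12 below 0, with a median of -0.063. An unadjusted p under 0.05 was found for 3 (12.5%), below the 15.1% of all genes. That count was 9 without knockout on IIAEK replicate 1 (24.5% of all genes) and 7 without wild type on IIAEK replicate 1 (18.3%). It was 7 with array weights (24.6%) and 1 without the 2 arrays highest in pancreas genes (8.46%). The sterol oxidase Msmo1 led them at 1.36 (SE 0.42, adjusted p = 0.311; 1.30 in its other probe), with levels of 3.71, 3.95 and 4.24 in wild type on vehicle and 3.31, 3.09 and 2.35 on IIAEK. In the knockout the levels were 3.41, 3.1 and 3.73 on vehicle and 3.21, 4.12 and 3.84 on IIAEK, and those groups overlapped. Idi1, isopentenyl diphosphate isomerase, had 0.85 (SE 0.31), Stard4, a cholesterol carrier, 0.69 (SE 0.33) and Pmvk, phosphomevalonate kinase, -0.54 (SE 0.23). For fatty acid synthesis 12 of 15 genes lay below 0 (median -0.43). An unadjusted p under 0.05 was found for 1 (6.67%), below the 15.1% of all genes. This was Acly, which makes cytosolic acetyl-CoA (-0.78, SE 0.28). Fasn, fatty acid synthase, had -1.54 (SE 0.78), Acaca -0.76 (SE 0.49) and Fads2 -0.65 (SE 0.39). The fatty acid median was -0.14 without knockout on vehicle replicate 1. The fatty acid count was 4 without knockout on IIAEK replicate 1, where 24.5% of all genes were at that level. It was 2 without replicate 1 of wild type on vehicle (13.1% of all genes) or of wild type on IIAEK (18.3%). The cholesterol median was 0.19 without knockout on IIAEK replicate 2.

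All 8 tested genes of Paneth cells, the defensin-secreting cells of the crypt base, had interactions above 0, beside 54.5% of all genes. Of them 5 were at an unadjusted p under 0.05, beside 8.96% of all genes in that direction. The list's median was 0.93, from -0.25 in wild type and 0.73 in the knockout. Of the 11 genes of that list, 3 were not tested. Defa21, an alpha-defensin, had levels of 5.74, 6.02 and 6.43 in wild type on vehicle and 5.66, 4.81 and 4.83 on IIAEK. In the knockout it had 5.59, 4.75 and 6.31 on vehicle and 6.06, 6.38 and 8.29 on IIAEK. The wild-type groups did not overlap, and in the knockout replicate 3 on IIAEK stood far above the rest. Its interaction was 2.33 (SE 0.77, adjusted p = 0.311), and 1.63 without that array. Probes for alpha-defensins may bind near-identical copies, so the member is uncertain. Lyz1, Paneth cell lysozyme, had levels of 7.93, 7.97 and 8.16 on vehicle and 7.78, 7.83 and 7.64 on IIAEK in wild type. It had 7.75, 7.77 and 7.72 on vehicle and 7.97, 7.83 and 8.19 on IIAEK in the knockout. Neither pair overlapped, and the interaction was 0.52 (SE 0.19). Mptx2, a pentraxin of Paneth cells, had 1.72 (SE 0.74), Itln1, a lectin that binds bacterial sugars, 0.79 (SE 0.35), Ang4 1.52 and Mmp7, which activates defensins, 1.08.

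The list's mean deviation in the knockout on IIAEK was 0.030, 0.23 and 1.06, so that replicate 3 held most of it. On slide 1 alone the median was 0.48 and on slide 2 alone 2.01, and it was 0.65 without knockout on vehicle replicate 3, the array with the lowest Paneth value. The count of 5 changed with the arrays used, and the share of all genes at that level is given in brackets. It was 1 without wild type on vehicle replicate 3 (8.8%) and 3 without wild type on IIAEK replicate 3 (8.08%). It was 2 without wild type on vehicle replicate 1 (13.1%) or wild type on IIAEK replicate 2 (13.2%). The count was also 2 without knockout on vehicle replicate 3 (13.8%) or knockout on IIAEK replicate 3 (11.5%). It was 1 with quantile normalisation (15.6%) and 1 without the 2 arrays highest in pancreas genes (8.46%). Of 10 goblet cell genes 8 were above 0, 3 of them at an unadjusted p under 0.05, beside 8.96% of all genes in that direction. The goblet median of 0.27 was 0.14 without knockout on vehicle replicate 2 and 0.14 with quantile normalisation. Agr2, which folds mucins, had levels of 5.86, 5.74 and 5.75 in wild type on vehicle and 5.40, 5.42 and 5.12 on IIAEK. For the knockout the levels were 5.50, 5.30 and 5.04 on vehicle and 5.62, 5.95 and 5.58 on IIAEK. Neither pair overlapped, and the interaction was 0.91 (SE 0.23, adjusted p = 0.311). Spink4 had 1.05 (SE 0.33) and the chemokine Ccl6 1.23 (SE 0.45). Muc2, the secreted mucin, had -0.25, and Zg16 0.26 (SE 0.19). Of 10 tuft cell genes 9 lay below 0 (median -0.45), 3 of them at an unadjusted p under 0.05, beside 6.12% of all genes in that direction. Alox5ap, which serves leukotriene synthesis, at -1.14 (SE 0.36) and the actin regulator Avil at -1.11 (SE 0.39) were among these 3. Trpm5, the taste channel, had -1.14 (SE 0.52; -0.72 with normexp), while Dclk1, another defining marker, had -0.10. Alox5ap is expressed by white blood cells too. The tuft count was 5 without knockout on IIAEK replicate 1, where 24.5% of all genes were at that level. It was 1 without the 2 arrays highest in pancreas genes (8.46% of all genes).

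Genes of B cells had the lowest interactions outside the pancreas. Of 13 tested genes 11 were below 0 and 9 at an unadjusted p under 0.05, all 9 below 0, beside 6.12% of all genes. Their median was -2.40, from 0.87 in wild type and -1.61 in the knockout. Tnfrsf13c, the BAFF receptor, had levels of -3.07, -2.80 and -0.43 on vehicle and -2.46, 0.14 and -0.66 on IIAEK in wild type. It had -0.42, 0.09 and -0.39 on vehicle and -2.52, -2.76 and -3.39 on IIAEK in the knockout, and its interaction was -3.76 (SE 1.0, adjusted p = 0.311). The knockout groups lay apart with little spread, whereas each wild-type group held both high and low arrays. Fcer2a, the low-affinity IgE receptor, and Cxcr5, the receptor for entry into follicles, were below background on all 3 knockout arrays on IIAEK, at least 7.46-fold and at least 11.5-fold lower than on vehicle. Both are among the 9, and both were tested only because the knockout on vehicle, the group where they were highest, had them above background on all 3 arrays. Fitted interactions for these genes, -6.79 (SE 1.79) and -7.60 (SE 2.11), include signals below background and are no bounds; with normexp they were -2.08 and -2.55.

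Genes of antibody-secreting cells did not share these values: Jchain, which joins secreted IgA, had 0.30 and Mzb1 -0.07. Pax5 had 0.61 and Cd22 -0.16. The list's median was -2.96 without wild type on vehicle replicate 3, -1.97 without wild type on IIAEK replicate 2, -2.13 within slide 1 and -2.82 within slide 2. The summed signal of the list spanned 192 to 242 times the 75th percentile in wild type on vehicle and 137 to 215 on IIAEK, and 136 to 220 and 130 to 244 in the knockout, since Jchain makes up most of it. In whole tissue, fewer cells of a type and less RNA per cell cannot be told apart, and the number of follicles in a sample was not measured.

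Genes of lymphoid follicles and of the M cells above them lay below 0 in 12 of 14 cases (median -1.50). Of the 14, 7 were at an unadjusted p under 0.05, beside 15.1% of all genes. Below 0 there were 6 of them, beside 6.12% of all genes, and Ccl9 lay above at 0.98. Spib, a transcription factor of M cells and B cells, had levels of -1.28, -1.40 and -0.29 in wild type on vehicle and -1.14, 0.55 and 0.19 on IIAEK. In the knockout it had 0.07, 0.44 and 0.23 on vehicle and -0.87, -1.35 and -1.62 on IIAEK. Its high and low arrays were those of Tnfrsf13c, and the interaction was -2.38 (SE 0.58, adjusted p = 0.311). Clu, clusterin, had -3.73 (SE 1.02), Ccr7, the receptor for homing to T cell zones, -3.46 (SE 1.17) and the cytokine Lta -2.72 (SE 0.92). Lta was above background on 1 of the 3 wild-type arrays on vehicle and 2 of the 3 knockout arrays on IIAEK, and its interaction was -0.82 with normexp, where the list's median was -0.98. Gp2, the defining receptor of M cells, had -3.25 and missed an unadjusted p of 0.05. For MHC class II presentation the median was -0.79, and 8 of 9 genes lay below 0. Of these, 3 were at an unadjusted p under 0.05, beside 6.12% of all genes in that direction. They were H2-Ob at -2.80 (SE 0.96), H2-Oa at -2.00 (SE 0.70) and the regulator Ciita at -1.17 (SE 0.49). The first 2 are chiefly B cell genes. Cd74, the invariant chain, had -1.10 (SE 0.59), and without knockout on IIAEK replicate 3, the array lowest in this list, the median was -0.32, against -1.18 without replicate 2 of that group. T cell genes, 14 in number, had a median of 0.14, and of 0.023 to 0.30 with 1 array left out.

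Genes of the muscle coat had interactions below 0. All 13 smooth muscle genes were below 0, 6 of them at an unadjusted p under 0.05, beside 6.12% of all genes in that direction. The list's median was -0.88, from 0.89 in wild type and 0.013 in the knockout. Acta2, smooth muscle actin, had levels of 4.05, 3.09 and 3.46 in wild type on vehicle and 4.39, 4.40 and 5.25 on IIAEK. The knockout arrays gave 4.64, 4.38 and 4.30 on vehicle and 4.65, 3.89 and 4.33 on IIAEK. The wild-type groups did not overlap, the knockout groups did, and the interaction was -1.29 (SE 0.42, adjusted p = 0.311; -0.86 and -1.07 in its other probes). Des, desmin, had levels of -0.96, -1.31 and -1.12 on vehicle and -0.61, 0.10 and 0.64 on IIAEK in wild type. It had -0.11, -0.14 and -0.50 on vehicle and -0.25, -0.74 and 0.14 on IIAEK in the knockout, and its interaction was -1.20 (SE 0.42). Smtn, smoothelin, had -0.87 (SE 0.38) and Tpm2, a tropomyosin, -1.05 (SE 0.46), although the other probe of Tpm2 gave 0.13. Tagln, an abundant marker of the same cells, had -0.16. Wild type on vehicle had the lowest mean of the 4 groups for this list, a mean deviation of -0.47 ± 0.33, against 0.38 ± 0.52 in wild type on IIAEK and 0.032 ± 0.24 and 0.066 ± 0.30 in the knockout. Slide 1 alone gave a median of -0.21, slide 2 alone -0.91, and leaving out wild type on IIAEK replicate 3 -0.51; this is the array that also held the pancreas signal. The count of 6 was 2 or 3 when any 1 of 8 arrays was left out, all but replicate 1 of both wild-type groups and replicate 3 of both knockout groups. In those 8 fits 8.08% to 24.5% of all genes were at that level. The count was 2 without the 2 arrays highest in pancreas genes (8.46% of all genes).

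For fibroblasts and matrix the median was -0.60, and 12 of 14 genes lay below 0. Of these, 4 were at an unadjusted p under 0.05, beside 6.12% of all genes in that direction. Col6a2, a chain of collagen VI, had levels of -1.41, -1.96 and -2.00 in wild type on vehicle and -0.96, -0.90 and -0.04 on IIAEK. For the knockout the levels were -0.85, -0.79 and -1.49 on vehicle and -1.0, -1.47 and -1.87 on IIAEK. The wild-type groups were apart and the knockout groups overlapped, with an interaction of -1.56 (SE 0.44, adjusted p = 0.311). Col6a1 had -1.11 (SE 0.38), Sparc, a matrix protein, -1.61 (SE 0.60) and Col1a1, of collagen I, -1.61 (SE 0.70). Dcn, decorin, lay above 0 at 0.57. Slide 1 alone gave a median of -0.25 and slide 2 alone -0.80. The count was 2 without wild type on IIAEK replicate 3 (8.08% of all genes), knockout on vehicle replicate 1 (13.6%) or knockout on IIAEK replicate 3 (11.5%). How much tissue from below the epithelium each sample held was not measured, and its part in the values of epithelial genes was not tested.

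Exocrine pancreas genes had the lowest median of any list, -4.82, with 13 of 13 below 0, but 0 at an unadjusted p under 0.05. Cpa1, carboxypeptidase A1, had levels of -0.03, -1.14 and -2.82 in wild type on vehicle and -3.55, -0.21 and 7.82 on IIAEK. In the knockout it had -3.86, -3.27 and 3.15 on vehicle and -2.93, -4.12 and -4.79 on IIAEK. The high value in wild type on IIAEK and that in the knockout on vehicle are 1 array each. The interaction was -5.31 (SE 3.50, adjusted p = 0.457) and 0.17 without those 2 arrays, where the list's median was 0.65. The other 3 genes named for this list turned as well, from -4.89 to 0.30 for Cela2a, from -4.72 to 0.31 for Cpb1 and from -4.82 to 0.44 for Ctrb1. The summed signal of the list was 2529 times the 75th percentile on the highest array of wild type on IIAEK and 157 on the highest of the knockout on vehicle, while the highest of wild type on vehicle was 48.9 and of the knockout on IIAEK 35.1, and the lowest of any group 27.1. Without the 2 arrays the medians of the lists above were 0.88 for brush border peptidases, 0.40 for peptide and amino acid transport, 0.61 for Paneth cells, -2.53 for B and plasma cells, -1.0 for lymphoid follicles and M cells, -0.70 for smooth muscle and -0.52 for fibroblasts and matrix.

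The other 27 lists had medians between -0.80 and 0.74, 15 above and 12 below 0, and 45 of their 324 tested genes (13.89%) were at an unadjusted p under 0.05, near the background of 15.1%. The highest, of mast cells and granulocytes, was -0.37 without knockout on vehicle replicate 3. For the endothelium 9 of 12 genes lay below 0 (median -0.75), 3 of them at an unadjusted p under 0.05. That count was 5 without wild type on IIAEK replicate 2, where 13.2% of all genes were at that level. It was 1 without the 2 arrays highest in pancreas genes (8.46% of all genes). Genes of the circadian clock had 4 of 15 at that level, 2 in each direction. The clock count was 10 of 15 without knockout on vehicle replicate 3, where 13.8% of all genes were at that level. It was 7 without wild type on vehicle replicate 1 (13.1% of all genes) and 8 without the 2 arrays highest in pancreas genes (8.46%). The clock median of 0.24 was 0.69 without knockout on vehicle replicate 3, 0.81 without those 2 arrays and 0.017 without wild type on vehicle replicate 2. Enteroendocrine genes had 4 of 15, all above 0, with a list median of 0.12; with 1 array left out the count was 1 to 6 and the median -0.052 to 0.21. Genes of tight junctions, of the interferon response and of intestinal stem cells had 0 such members of 14, 13 and 11, and up to 2, 2 and 1 with 1 array left out.

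The count of genes at an unadjusted p under 0.05 depended on single arrays. It was 2227 (8.08%) without wild type on IIAEK replicate 3, 2427 without wild type on vehicle replicate 3 and 2659 without knockout on IIAEK replicate 2, and it was 6756 (24.5%) without knockout on IIAEK replicate 1. With any 1 array left out, 0 genes passed the adjusted threshold in limma. Without the 2 arrays highest in pancreas genes the count was 2332 (8.46%). Of the 88 genes that the rule names, 86 kept the sign of their interaction when any 1 array was left out; Abcg5 and Soat2 were the exceptions. The sign was the same within both slides for 77 of the 88.

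**Figure D5:**
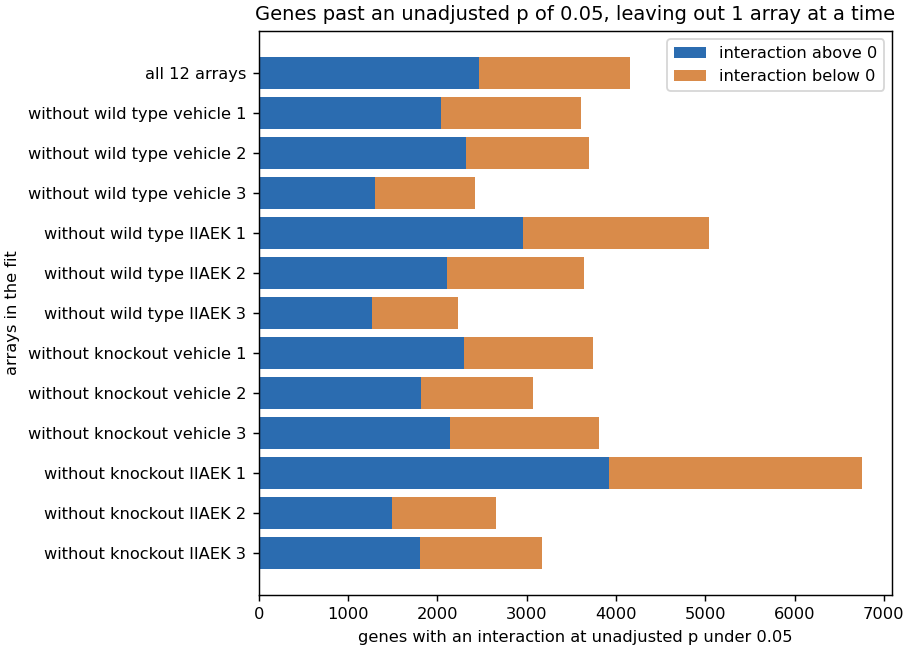
Bars give the number of genes with an interaction at an unadjusted p under 0.05 with all 12 arrays and with each array left out in turn, split into interactions above 0 (blue) and below 0 (orange). The count spans 2227 without wild type on IIAEK replicate 3 to 6756 without knockout on IIAEK replicate 1, beside 4157 with all arrays.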

How the data were processed

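Per the labels' protocols, total RNA of the jejunum was labelled with Cy3 and a linear amplification kit from Agilent, 1 mouse per array on 12 mouse arrays. Per the file headers, Feature Extraction 10.7.3.1 made the deposited processed signal, an intensity already corrected for background and not scaled between arrays. A value table was deposited as well, on a log2 scale. Scaling by the 75th percentile and subtraction of each probe's median match it (correlation of at least 0.9997 with the scanner values on every array); neither is stated. It runs in the same direction as the scanner values, and its column medians lie between -0.080 and 0.151.

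Control spots and the 49 to 95 spots per array marked as outliers were left out, and 0 spots were saturated. The log2 processed signal minus log2 of the array's 75th percentile was the level. Of 56605 probes 32994 were named through RefSeq accessions. The brightest probe stood for a gene, and a gene was tested when some group had it above background on each of its 3 arrays: 27565 genes, 15812 with a symbol. The fit lacks 1 array's value for some genes, none of them described in the text. All 4 group means were fitted together in limma 3.58.1 (R 4.3.3), two-sided, with Benjamini-Hochberg adjustment over all genes at 0.05; SE are limma's. An "at least" fold compares the brighter group's mean with the detection limit of the other. No sequence was needed for these comparisons.

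Named genes are the 4 alkaline phosphatases, the 10 characterised genes of smallest p in each direction (as none passed), the 4 members of smallest p in each of the 15 lists described, and 8 genes of sterol and peptide handling; other members are named as examples of their list, chosen after their values were seen. Some genes that the rule names are not reported here, although the counts and medians hold them. Of 559 genes in 42 lists, 514 were tested. The comparison, the members and the lists were chosen with earlier results of these data known. Lists were not tested as sets. Alternatives were background correction, scaling, filters, probe summary, the deposited table, slide and replicate blocks, variance settings and leaving out arrays. The steps were checked on simulated data.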

Additional observations from a re-analysis of the deposited data

How the results depend on the processing

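The count of 0 genes with an interaction held in limma in all 25 alternatives, whose smallest adjusted p lay between 0.0511 (slide as a block) and 0.605 (without wild type on IIAEK replicate 3). The number at an unadjusted p under 0.05 was 6770 with array weights, 2332 without the 2 arrays highest in pancreas genes and 2227 to 6756 with 1 array left out; in the other alternatives it stayed within 1.5 times the 4157 of all arrays. Without the filter on dim probes it was 8.58% of genes. IIAEK in wild type gave 1 gene with slide as a block, Dusp9, and 1 without wild type on IIAEK replicate 1, Pramel34; leaving out 1 array gave 0 to 1. IIAEK in the knockout gave 14 genes when fitted on the 6 knockout arrays alone. Cr2, Cxcr5 and Ms4a1 were among them, and so were Chst3, Srpk3 and Tmem108. Cxcr5 was below background on all 3 knockout arrays on IIAEK and was tested only through the knockout on vehicle, where it was highest.

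Interactions that turned sign without the 2 arrays highest in pancreas genes were Alpl (0.11), Cpa1 (0.17), Cela2a (0.30), Cpb1 (0.31), Ctrb1 (0.44), Abcg5 (-0.16) and Soat2 (-0.067). Others kept their sign and changed in size. Itln1 went from 0.79 to 0.39, Ccl6 from 1.23 to 0.75, Slc3a1 from 1.16 to 0.80 and Slc15a1 from 1.26 to 1.83. Mtss2 gave 0.094 with all probes averaged, and Abcg5 -0.17 with quantile normalisation. With 1 array left out, Abcg5 lay between -0.19 and 0.19 and Soat2 between -0.079 and 0.56. The cause was not tested.

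With normexp correction on median signals, interactions of dim genes were smaller, such as -1.16 for Akp3, 0.58 for Dusp9 and -0.27 for Polh. Of same-numbered pairs of arrays from different groups 8 of 18 correlated above 0.1 (median 0.066), against 10 of 36 differently numbered pairs (median -0.0048). Of 12 arrays, 5 correlated best with their own number. Most same-numbered pairs also shared a slide, so these values cannot decide whether the replicate numbers pair the mice. With a replicate block 0 genes passed and 4084 were at an unadjusted p under 0.05. The array number limits precision; signal over background limits Akp3, Bpifb1, Cxcr5, Dusp9, Fcer2a, Lta and Polh.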
